A study of Mus musculus with 6 samples.

Results

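Collagen genes were examined by single-cell RNA-seq in 2 mouse tissues, the kidney and the MMTV-PyMT mammary tumor. The members were all gene symbols of the deposited tables that read Col, a number, the letter a and a number, with nothing after it, which gave 44 of 31053 genes. At least 1 UMI (unique molecular identifier, 1 captured RNA molecule) was found for 43 members in kidney and for all 44 in the tumor, and 24 and 35 members reached 60 UMIs over the 3 libraries of the tissue. The kidney came from C57BL/6 mice of 12 weeks and the tumor from MMTV-PyMT mice of 10 weeks, in which the MMTV promoter drives the polyoma middle T oncogene in mammary epithelium. Each tissue gave 3 libraries, namely a 60 min control digest and the cells that a microfluidic platform released at a 15 min and a 60 min interval. Per the paper, the intervals were eluted in turn, with fresh collagenase for the tissue that remained. The 60 min interval therefore lacks the cells already collected at 15 min, unlike the control digest. All tissue was minced and digested with type I collagenase, an enzyme that cuts collagen protein, and all suspensions were treated with DNase, freed of red blood cells and sorted to remove dead cells. There was 1 library per tissue and condition, so no difference between conditions could be tested, and per the study's reporting summary tissue of 1 mouse served for every condition of a replicate. Intervals below are exact 95% intervals of the counts and cover counting error only.

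Collagens are triple-helical proteins of the extracellular matrix, built from 3 alpha chains that each gene of the family encodes singly. The fibrillar collagens I, III, V and XI give tissues tensile strength and are made mainly by fibroblasts, whereas collagen IV forms the sheet-like network of basement membranes under epithelia and around vessels. Collagen VI makes beaded filaments near cells, the collagens with interrupted helices (FACIT) sit on the surface of fibrils, collagens XV and XVIII (the multiplexins) lie at basement membranes, and collagens XIII, XVII, XXIII and XXV span the cell membrane. In the kidney the glomerular filter depends on a collagen IV network of the alpha 3, 4 and 5 chains, and in carcinomas deposition of fibrillar collagen by stromal cells is a known feature.

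After removal of cells with few genes, many genes or a high mitochondrial share, 5886, 8390 and 9936 kidney cells and 5736, 5802 and 6024 tumor cells were kept from the control, the 15 min and the 60 min library, in this order, which is used throughout. They held between 33644880 and 61434200 UMIs per library, with medians of 4583 to 6612 UMIs per cell in kidney and of 8210 to 9476 in the tumor. The kidney 15 min library stood apart, with a median mitochondrial share of 20.4% against 7.38% and 8.59% in the other kidney libraries. Between 13 and 211 cell barcodes were shared by any of the 15 pairs of libraries. Each tissue carried its own epithelial markers, at 4251 to 11300 CPM (UMIs per 1000000 UMIs of the same cells) for 6 proximal tubule markers in kidney and at 8527 to 15563 CPM for 6 luminal markers in the tumor. Cells were assigned to classes by 6 marker genes per class, none of them a collagen, and a class is called fibroblast-like, endothelial-like and so on. Of the leading genes of these classes, Col3a1, Col1a2 and Col1a1 were among those of the fibroblast-like cells of both tissues and Col4a1 among those of the tumor endothelial-like cells. Levels are given in CPM and are not divided by gene length, because in this assay 1 end of each RNA molecule is counted.

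Several collagen genes lie side by side in the genome, and the start regions of those on which the results turn are given here so that their positions can be read beside the levels. Col4a1 (chr8:11198423-11312826, minus strand) and Col4a2 (chr8:11312805-11449287, plus strand), the main chains of vascular basement membrane, run away from each other and overlap by 22 bases in the GENCODE annotation of GRCm38. Col4a3 (chr1:82586921-82722059, plus strand) and Col4a4 (chr1:82448423-82586849, minus strand) start 72 bases apart, and Col4a5 and Col4a6 on chromosome X start 1309 bases apart. Col3a1 (chr1:45311538-45349706, plus strand) and Col5a2 lie on opposite strands with a gap of 24614 bases. No same-strand gene overlapped the 3′ end of any member. The windows below run from 250 bases before to 30 bases after the RefSeq start of transcription in GRCm38.p6, 5′ to 3′ on the strand of the gene. They are chr8:11312797-11313076 on the minus strand for Col4a1, chr8:11312555-11312834 on the plus strand for Col4a2, chr1:82586820-82587099 on the minus strand for Col4a4, chr6:4505368-4505647 on the plus strand for Col1a2, chr1:45311288-45311567 on the plus strand for Col3a1, chr4:121039316-121039595 on the plus strand for Col9a2 and chr3:114030290-114030569 on the plus strand for Col11a1. Capitals mark the motifs searched on both strands, which were CCAAT (the CCAAT box), TATAAA (the TATA box), GGGCGG (the GC box) and AACAAT (bound by Sox factors).
Col4a1: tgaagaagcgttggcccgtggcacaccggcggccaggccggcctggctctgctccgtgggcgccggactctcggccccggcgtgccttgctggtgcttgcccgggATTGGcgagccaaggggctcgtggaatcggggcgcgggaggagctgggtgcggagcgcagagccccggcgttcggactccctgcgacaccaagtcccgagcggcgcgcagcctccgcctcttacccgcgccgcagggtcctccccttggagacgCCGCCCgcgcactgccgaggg
Col4a2: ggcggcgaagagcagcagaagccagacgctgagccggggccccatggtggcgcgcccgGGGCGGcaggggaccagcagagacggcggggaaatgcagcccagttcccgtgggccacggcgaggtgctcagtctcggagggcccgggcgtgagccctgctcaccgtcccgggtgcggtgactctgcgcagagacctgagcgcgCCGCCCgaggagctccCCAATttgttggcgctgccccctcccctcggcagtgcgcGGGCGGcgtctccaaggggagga
Col4a4: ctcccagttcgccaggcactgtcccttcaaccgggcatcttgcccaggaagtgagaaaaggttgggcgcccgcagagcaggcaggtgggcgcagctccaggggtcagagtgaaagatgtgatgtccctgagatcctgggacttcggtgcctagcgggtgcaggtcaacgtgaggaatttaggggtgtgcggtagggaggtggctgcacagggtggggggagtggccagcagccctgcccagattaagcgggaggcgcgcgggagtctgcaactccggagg
Col1a2: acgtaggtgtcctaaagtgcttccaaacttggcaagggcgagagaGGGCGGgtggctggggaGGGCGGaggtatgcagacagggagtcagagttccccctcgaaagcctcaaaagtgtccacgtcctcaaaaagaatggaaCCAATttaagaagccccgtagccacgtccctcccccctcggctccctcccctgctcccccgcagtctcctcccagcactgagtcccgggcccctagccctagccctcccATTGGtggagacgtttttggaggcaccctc
Col3a1: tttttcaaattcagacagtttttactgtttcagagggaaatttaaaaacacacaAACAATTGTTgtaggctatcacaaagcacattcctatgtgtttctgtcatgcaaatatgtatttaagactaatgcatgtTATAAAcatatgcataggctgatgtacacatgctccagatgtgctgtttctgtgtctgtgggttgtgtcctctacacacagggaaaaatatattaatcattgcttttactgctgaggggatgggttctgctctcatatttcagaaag
Col9a2: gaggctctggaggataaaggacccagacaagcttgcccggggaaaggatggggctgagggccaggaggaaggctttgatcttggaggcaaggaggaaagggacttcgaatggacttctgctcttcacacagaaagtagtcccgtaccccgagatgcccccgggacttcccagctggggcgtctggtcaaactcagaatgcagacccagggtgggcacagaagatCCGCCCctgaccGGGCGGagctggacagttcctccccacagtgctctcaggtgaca
Col11a1: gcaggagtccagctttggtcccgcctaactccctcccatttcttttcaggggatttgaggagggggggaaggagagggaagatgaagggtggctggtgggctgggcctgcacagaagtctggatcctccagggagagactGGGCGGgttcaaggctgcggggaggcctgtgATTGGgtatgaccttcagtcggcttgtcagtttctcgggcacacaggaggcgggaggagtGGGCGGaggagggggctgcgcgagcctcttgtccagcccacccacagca

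RefSeq windows of 300 bases, running 50 bases past the start, were found for 35 of the 44 members, 38 windows in all. A GC box stood in 23 of these 38 windows (60.5%) and in 35.7% of the 32851 windows of all genes. CCAAT was in 13 collagen windows (34.2%, against 37.4% of all), TATAAA in 5 (13.2%, against 13.6%) and AACAAT in 1 (2.63%, against 10.7%). That one was the Col3a1 window, where AACAAT on either strand overlaps itself, and Col3a1 was also the only one of the 7 genes printed with a TATA box. The Col4a4 window held none of the 4 motifs. A match describes the letters of a window and is no evidence of binding.

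In the tumor, collagen transcripts were most abundant in the 60 min platform library, and the fibroblast-like cells were their largest source. All members together gave 55397, 82352 and 212407 UMIs, or 1093, 1502 and 3661 CPM, which is 1.37 times the control at 15 min (1.36 to 1.39) and 3.35 times at 60 min (3.32 to 3.38). Over the 3 libraries 47.1% of tumor collagen UMIs came from 372 fibroblast-like cells, 23.0% from 9888 luminal epithelial-like cells, 19.8% from 1348 endothelial-like cells, 3.94% from 129 pericyte-like cells, 1.44% from myeloid-like and 0.996% from basal epithelial-like cells. Among the kept cells the luminal part was the larger one in the control (44.1% against 22.6% fibroblast-like) and at 15 min (42.7% against 26.9%). At 60 min the order was the opposite, with 61.4% from fibroblast-like and 9.81% from luminal cells. This switch depended on the cell limits. Without upper limits on cells the fibroblast-like part was the larger one in the control (49.9% against 31.8% luminal). It was also larger at 15 min (41.3% against 33.5%) and at 60 min (77.1% against 5.53%).

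The numbers of these cells differed between libraries as well. Fibroblast-like cells were 34, 65 and 273, which is 0.593%, 1.12% and 4.53% of kept cells, while the 6 fibroblast markers summed to 94.0, 140.0 and 589 CPM. Luminal epithelial-like cells were 3477, 3928 and 2483, pericyte-like cells 18, 32 and 79, and endothelial-like cells 309, 253 and 786. Multiplying the control level of each class by the share of UMIs that the class took in the other libraries gave 1.18 times the control for 15 min and 3.00 times for 60 min, beside the measured 1.37 and 3.35.

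**Figure D1:**
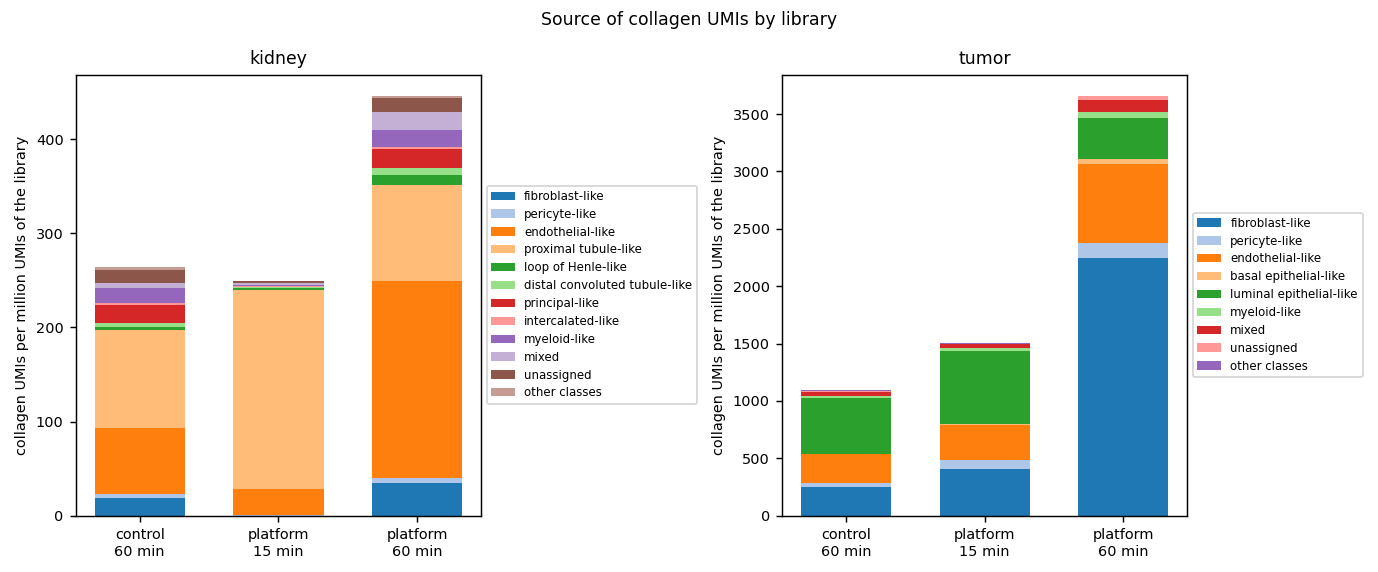
Collagen CPM of the library (vertical axis, linear, from 0) in the 3 kidney and 3 tumor libraries, stacked by the marker-gated class the UMIs came from. The tumor 60 min bar reaches 3661 CPM and is mostly fibroblast-like, and the kidney 15 min bar is mostly proximal tubule-like and holds no fibroblast-like part.

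In kidney the collagen level was lower than in the tumor in each of the 3 conditions, and the main sources were epithelial and endothelial. Members together gave 8890, 15320 and 23358 UMIs, or 264.2, 249.4 and 446.3 CPM, which is 0.944 times the control at 15 min (0.919 to 0.969) and 1.69 times at 60 min (1.65 to 1.73). Proximal tubule-like cells held 45.8% of kidney collagen UMIs and endothelial-like cells 31.6% (16.2% without upper limits on cells), while fibroblast-like cells held 5.13%, principal-like cells 3.70% and pericyte-like cells 0.994%. At 15 min the proximal tubule-like share was 84.6%, against 39.4% in the control and 22.7% at 60 min, and the endothelial-like share was 11.2% against 26.5% and 46.8%. The direction of the 15 min total depended on the denominator, since with the TMM factor the ratio was 1.29 and with non-mitochondrial UMIs as the denominator it was 1.06. No fibroblast-like cell was found among the 8390 kept cells of the kidney 15 min library, against 11 in the control and 17 at 60 min, and the 6 fibroblast markers summed there to 1.09 CPM, with 2 of them at 0, against 63.2 and 54.9 CPM. Principal-like cells numbered 15 in that library, against 118 and 173, and myeloid markers summed to 287 CPM against 3114 and 3015 CPM, so other classes were scarce there too.

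The fibrillar collagens I and III were the most abundant collagen transcripts of the tumor at 60 min. Col1a1, the alpha 1 chain of collagen I, stood at 56.3, 102 and 626 CPM, and its partner chain Col1a2 at 46.3, 103 and 549 CPM. Col3a1, which forms the homotrimer of collagen III, stood at 119, 179.9 and 689.9 CPM. All 3 genes were highest at 60 min and, among the kept cells, lowest in the control, 11.1 times the control for Col1a1 (10.7 to 11.5), 11.8 times for Col1a2 (11.3 to 12.3) and 5.79 times for Col3a1 (5.63 to 5.94). At 15 min the ratios were 1.82, 2.22 (2.12 to 2.33) and 1.51. Without upper limits on cells Col3a1 stood at 382.5, 361.8 and 1616 CPM, lowest at 15 min with a ratio of 0.946, and the 15 min ratio of Col1a2 was 1.34. Among the kept cells Col1a2 was the 1 member of 35 counted that was past 2-fold, where 2.84% of 14697 genes were. No member was lower past 2-fold at 15 min, where 3.32% of genes were. With the TMM factor these counts were the same for the members, beside 234 genes higher and 643 lower in place of 417 and 488.

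At 60 min 21 of 35 counted members were higher past 2-fold in the tumor, where 8.08% of all genes were, and 1 member was lower, where 2.12% were. The median log2 ratio was 1.49 over the collagens and 0.00 over all genes. The beaded filament chains were all 4 of 4 higher, with a median log2 ratio of 2.97, the hexagonal network chains 2 of 2 (3.05), the multiplexins 2 of 2 (1.63), the fibrillar chains 6 of 10 (2.30), the transmembrane collagens 3 of 4 (1.41), the basement membrane chains 2 of 5 (-0.07) and the FACIT collagens 2 of 7 with 1 lower (-0.11). The anchoring fibril collagen Col7a1 stood at 1.80 times the control. The medians at 15 min lay between 0.02 (Col7a1) and 0.54 (fibrillar) on the log2 scale, beside 0.22 over all genes and 0.40 over the collagens.

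Among the members past 2-fold, Col8a1, a chain of the short-chain network of vessel walls and eye, had the highest ratio, with 3.85, 6.44 and 50.9 CPM and 13.2 times the control (11.4 to 15.4). Collagen V regulates fibril thickness, and its chains Col5a1 (5.86, 8.19 and 39.4 CPM), Col5a2 (10.7, 17.9 and 104 CPM) and Col5a3 (4.36, 7.40 and 18.3 CPM) were 6.72, 9.64 and 4.20 times the control. Collagen VI chains Col6a1 (11.1, 15.9 and 88.8 CPM), Col6a2 (7.62, 10.7 and 62.9 CPM) and Col6a3 (10.5, 14.6 and 75.1 CPM) were 8.03, 8.25 and 7.13 times the control, so the ratios of these 3 partners were close to each other. The FACIT chains of dense stroma, Col12a1 (13.0, 14.2 and 59.5 CPM) and Col14a1 (15.0, 18.5 and 42.0 CPM), stood at 4.56 and 2.80 times. Less abundant members past 2-fold were Col6a5 (7.67 times), Col8a2 (5.22), Col23a1 (3.42), Col17a1 (3.02) and Col13a1 (2.35), each under 8 CPM in every library.

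The vascular collagens had smaller ratios. Col4a1 stood at 169, 206 and 465 CPM and Col4a2 at 88.7, 114 and 252 CPM, or 2.75 (2.69 to 2.82) and 2.85 times the control at 60 min. Col15a1 (17.7, 20.7 and 61.7 CPM) and Col18a1 (25.3, 29.4 and 70.0 CPM), the precursor of the angiogenesis inhibitor endostatin, were 3.49 and 2.76 times. In these genes the 15 min library lay between the control and the 60 min library, except that with the mean over cells the 15 min ratio was 0.940 for Col4a1 and 0.997 for Col18a1.

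Another set went the other way or stayed close to the control. Col9a1 (132, 174 and 81.5 CPM), Col9a2 (72.0, 97.4 and 59.1 CPM), Col9a3 (56.6, 76.0 and 52.3 CPM) and Col11a1 (100.3, 135 and 72.0 CPM), chains best known from cartilage, were all highest at 15 min and lowest at 60 min, with 60 min ratios of 0.619, 0.820, 0.924 and 0.718. The same order held for Col4a5 (21.3, 29.8 and 16.0 CPM) and Col4a6 (12.9, 18.0 and 12.3 CPM). Col16a1, a FACIT collagen, stood at 56.0, 61.5 and 62.4 CPM, Col25a1 at 7.92, 12.7 and 9.62 CPM and Col27a1 at 15.7, 13.0 and 11.3 CPM. Col20a1 was the member lower past 2-fold, at 0.612, 0.419 and 0.241 CPM (0.394 times, 0.194 to 0.764), on 68 UMIs in all, and at 0.613 times without upper limits on cells. Summed luminal markers in the same libraries were 14470, 15563 and 8527 CPM, in the same order as these collagen IX and XI chains.

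**Figure D2:**
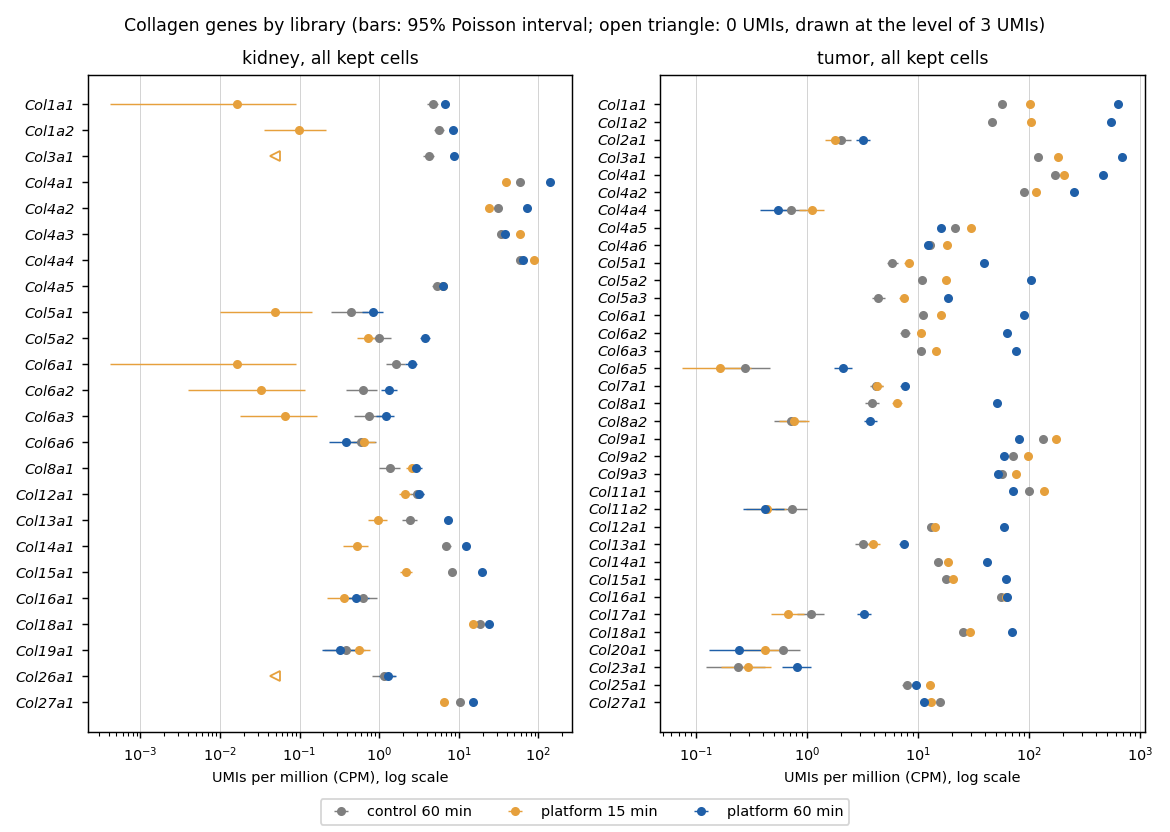
CPM of each member with at least 60 UMIs over the 3 libraries of its tissue (horizontal axis, log scale), with the control in grey, the 15 min interval in orange and the 60 min interval in blue, bars as 95% Poisson intervals and open triangles as 0 UMIs drawn at the level of 3 UMIs. In the tumor the blue points of Col1a1, Col1a2, Col5a2 and Col8a1 lie furthest to the right of the grey ones, and in kidney the orange points of Col1a1, Col1a2, Col3a1, Col6a1 and Col26a1 lie far to the left.

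Within the tumor fibroblast-like cells collagen took a large part of all transcripts and differed far less between libraries than in the library sums. Collagen CPM in this class was 34733, 40780 and 42056, or 1.17 and 1.21 times the control (1.19 to 1.23 at 60 min). The median cell spent 3.66%, 3.25% and 3.75% of its UMIs on collagens, and the highest cell 13.3%. Of the transcripts of a gene, the fibroblast-like cells held 89.5% for Col3a1, 88.4% for Col1a1, 89.7% for Col1a2, 85.2% for Col5a2, 84.2% for Col6a1, 80.6% for Col8a1, 60.0% for Col12a1 and 55.2% for Col14a1.

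The libraries differed in the proportion of collagen III to collagen I within this class. Col3a1 stood at 14497, 15702 and 11715 CPM and Col1a1 at 6542, 8014 and 10596 CPM in the fibroblast-like cells, so that Col3a1 was 0.808 and Col1a1 1.62 times the control at 60 min (1.55 to 1.69). The Col3a1 to Col1a1 ratio was therefore 2.22 (2.11 to 2.33), 1.96 and 1.11 (1.09 to 1.12). Col1a2 stood at 5384, 8327 and 9436 CPM, and its ratio to Col1a1 moved less, with 1.22, 0.962 and 1.12 Col1a1 UMIs per Col1a2 UMI. Col5a2, the collagen V chain that lies next to Col3a1 in the genome, was 1122, 1342 and 1706 CPM, in the order of Col1a1 and not of Col3a1.

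Of 23 members counted in these cells, 3 were higher past 2-fold at 60 min, where 11.1% of 6606 genes were, so that the members were near the share of all genes. No member (0) was lower, where 4.57% of genes were. The median log2 ratio was 0.22 over the members and 0.12 over all genes. By type the 3 higher members were 1 of 8 fibrillar chains, 1 of 2 hexagonal network chains and 1 of 2 multiplexins. Col8a1 stood at 299, 264 and 829 CPM (2.77 times, 2.29 to 3.39) and was found in 35.3%, 32.3% and 65.6% of the fibroblast-like cells. Col15a1 stood at 105, 151 and 254 CPM (2.41 times), and Col11a1, a fibrillar chain that nucleates fibrils, at 33.2, 77.4 and 101 CPM (3.04 times, 1.71 to 5.94). Col14a1 went the other way with 825, 938 and 489 CPM (0.592 times), as did Col5a3 with 294, 374 and 201 CPM (0.683 times). The collagen VI chains Col6a1 (1077, 1095 and 1469 CPM), Col6a3 (942, 944 and 1179 CPM) and Col6a2 (728, 734 and 1025 CPM) were alike in the control and at 15 min and higher at 60 min.

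**Figure D3:**
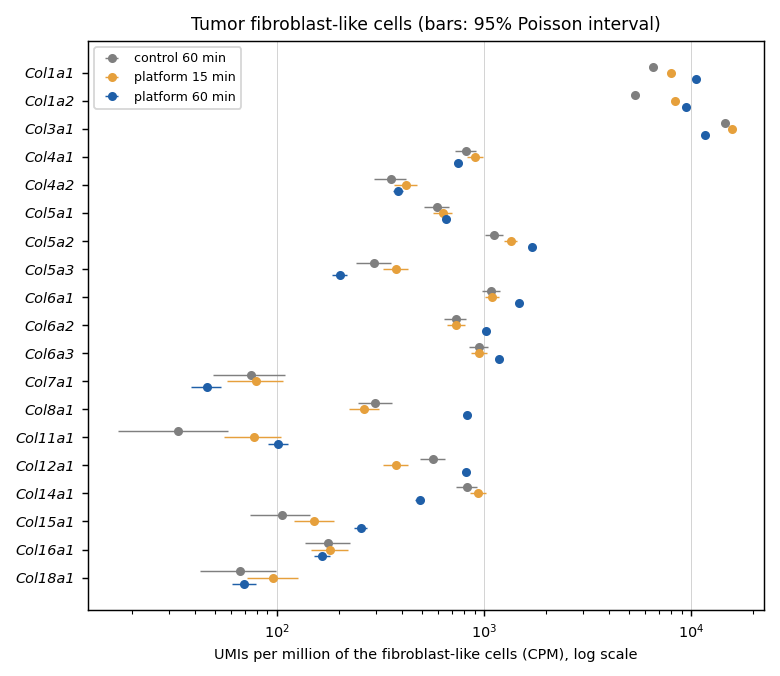
CPM of the collagens with at least 200 UMIs in the tumor fibroblast-like cells (horizontal axis, log scale) by library, with bars as 95% Poisson intervals. Col1a1, Col1a2 and Col8a1 are highest in the 60 min library (10596, 9436 and 829 CPM), while Col3a1, Col5a3 and Col14a1 are lowest there (11715, 201 and 489 CPM).

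The upper limits on genes removed many cells of this class. Once cells above the gene limit and the mitochondrial limit were let in, there were 905 fibroblast-like cells (121, 140 and 644), with a median of 4174 genes against the limit of 4000, and they held 66.4% of tumor collagen UMIs. Their collagen CPM was 31805, 39678 and 45664, with Col1a1 at 5383, 7648 and 11679 CPM and Col14a1 at 809, 975 and 503 CPM, in the same orders as above. The order of Col8a1 was not kept. It stood at 276, 580 and 938 CPM, lowest in the control and not at 15 min.

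The pericyte-like cells of the tumor combined basement membrane and fibrillar chains, at 13809, 20226 and 13547 collagen CPM. Over the 3 libraries Col4a1 stood at 3411, Col3a1 at 2386, Col4a2 at 2059, Col1a1 at 1536 and Col1a2 at 1165 CPM. The fibrillar part varied most, with 922, 2572 and 1280 CPM for Col1a1. Col5a3 was highest in this class of the 8 plotted, at 685 CPM against 233 CPM in fibroblast-like cells, and Col15a1 was too, at 491 CPM against 360 CPM in endothelial-like cells, each in all 3 libraries. With 18, 32 and 79 cells these levels rest on few cells.

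In tumor endothelial-like cells collagen was almost wholly of basement membrane and vessel type, at 7461, 8638 and 6211 collagen CPM. Col4a1 stood at 4141, 4769 and 3384 CPM and Col4a2 at 2196, 2657 and 1818 CPM, and the class held 81.1% and 80.9% of the UMIs of these genes. Both were lowest at 60 min within the class, 0.817 times the control for Col4a1, while the library sums were highest there and the class had 786 cells against 309. Col18a1 (585, 632 and 494 CPM), Col15a1 (381, 390 and 346 CPM) and Col13a1 (80.4, 104 and 57.0 CPM), a transmembrane collagen, had the same order. For Col13a1 the endothelial-like cells held 87.3% of all UMIs, for Col18a1 77.5% and for Col15a1 64.5%. Pericyte-like and endothelial-like cells were close in Col4a1 over the 3 libraries, with 3411 and 3778 CPM, and in Col4a2, with 2059 and 2043 CPM.

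The luminal epithelial-like cells of the tumor, the lineage that lines the mammary ducts, carried collagen IX, XI and other chains at a low level per cell, most of them at a higher level in the basal epithelial-like cells. Collagen CPM was 779.9, 892 and 862, or 1.14 and 1.11 times the control. Col9a1 stood at 208, 239 and 186 CPM, Col11a1 at 157, 182 and 145 CPM, Col9a2 at 113, 132 and 126 CPM and Col9a3 at 86.7, 102 and 103 CPM. These cells held 97.6% of Col9a1, 93.5% of Col11a1, 94.9% of Col9a2 and 91.8% of Col9a3 UMIs, and T and NK-like cells stood at 2.45 CPM for Col9a1 and 0.816 CPM for Col11a1. All 3 chains of collagen IX were thus present in 1 class. Col16a1 (82.0, 77.3 and 98.6 CPM), the neighbouring basement membrane chains Col4a5 (35.5 CPM over all 3, 92.6% of its UMIs) and Col4a6 (23.3 CPM, 94.0%) and Col25a1 (12.3, 17.2 and 21.0 CPM, 94.6%) completed the set. Col27a1, a fibrillar chain of cartilage, was 18.1, 13.0 and 8.44 CPM, 0.467 times the control at 60 min.

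Detection of Col9a1 was compared between classes at equal depth. A thinned share is bounded by the depth of 1000 UMIs, so it does not give the share of cells that express the gene. After thinning each cell to 1000 UMIs, Col9a1 was found in 15.5% of luminal, 10.2% of basal and 0.473% of T and NK-like cells, and unthinned in 52.4% of luminal cells. Thinned cells with a Col9a1 UMI had Col11a1 in 20.1%, against 12.8% of those without, and Col9a2 in 15.1% against 9.77%.

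Basal epithelial-like cells, the myoepithelial lineage, were few (14, 17 and 87) yet had the highest level of 10 of the 35 counted members. Their collagen CPM was 4329, 4436 and 3450. Col16a1 led with 684 CPM over the 3 libraries, followed by Col9a3 with 548, Col9a2 with 343, Col11a1 with 329.8 and Col12a1 with 247 CPM. Collagens of the epithelial anchoring complex were most marked here, with Col17a1, the hemidesmosome collagen, at 369.5, 181 and 186 CPM (68.4% of its UMIs) and Col7a1, which forms anchoring fibrils, at 238 CPM (25.5%). Col18a1 stood at 217, Col4a5 at 141, Col8a2 at 92.0 and Col4a6 at 78.2 CPM, and Col2a1, the cartilage fibril chain, at 327, 453 and 65.0 CPM, values carried by 6, 4 and 10 cells with a Col2a1 UMI. Compared with the luminal cells, the basal cells had 5.63 times the Col9a3 level and 2.01 times the Col11a1 level, but Col9a1 was lower in them, at 109.9 CPM against 215 CPM.

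Col14a1, a FACIT chain of stroma, was also found in leukocyte classes. Tumor myeloid-like cells stood at 31.9, 45.7 and 44.2 CPM and held 40.6% of its UMIs, and Col27a1 (13.0 CPM, 25.1%) and Col15a1 (7.08 CPM) were found there too. In kidney, myeloid-like cells stood at 27.4, 31.8 and 33.7 CPM for Col14a1 and held 66.3% of its UMIs. Tumor T and NK-like cells had 2 Col14a1 UMIs in all, and the 3 other leading collagens of kidney myeloid-like cells were Col4a1 (7.14 CPM), Col4a2 (6.73 CPM) and Col15a1 (4.35 CPM), after Col27a1 (15.6 CPM).

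Low levels of the most abundant fibroblast collagens appeared in the luminal, endothelial-like and leukocyte classes. Col1a1 stood at 3.51, 6.93 and 17.2 CPM in luminal, 2.59, 3.75 and 16.1 CPM in myeloid-like, 1.95, 3.25 and 17.3 CPM in T and NK-like and 4.11, 2.07 and 17.7 CPM in endothelial-like cells. Col3a1 followed with 5.33, 7.26 and 18.1 CPM in luminal and 7.80, 9.75 and 27.1 CPM in T and NK-like cells. These classes were close to each other within a library and highest in the 60 min library, which also had the highest Col1a1 and Col3a1 sums, and the part of free RNA in these values was not tested. Thinned to 1000 UMIs, Col1a1 was found in 96.7% of fibroblast-like, 54.3% of pericyte-like, 0.819% of luminal and 0.591% of T and NK-like cells, at unthinned medians of 11114, 6631, 9163 and 6727 UMIs per cell. The luminal share was thus close to that of the T and NK-like cells, while the highest luminal cell held 133 Col1a1 UMIs. Whether the luminal values reflect expression was not tested. Granulocyte-like cells had Col3a1 at 33.4 CPM and Col1a1 at 13.8 CPM, on 29 and 12 UMIs. Total collagen in myeloid-like and T and NK-like cells was 84.7, 108 and 150.1 and 40.6, 42.9 and 98.2 CPM.

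**Figure D4:**
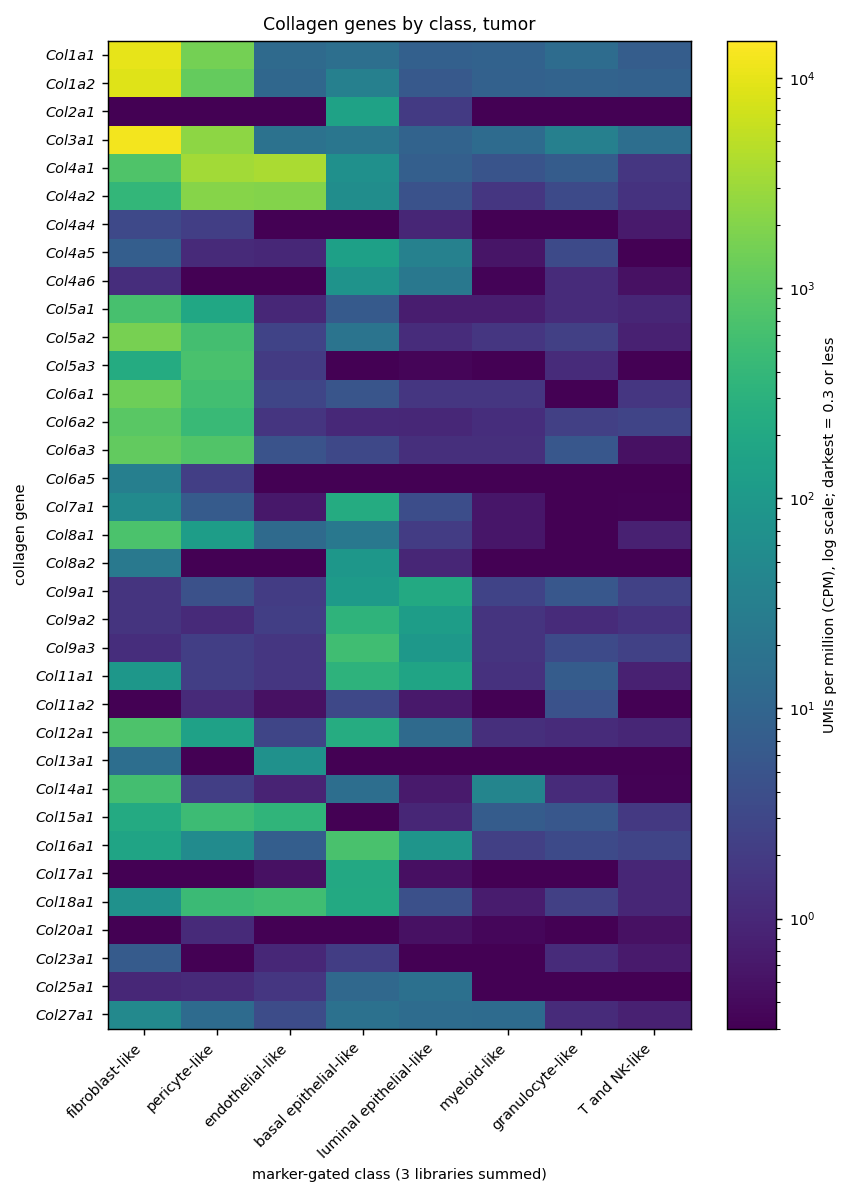
CPM of the 35 counted collagens (rows) in 8 marker-gated classes of the tumor (columns, 3 libraries summed), in colours on a log scale. The fibrillar and collagen VI chains are brightest in fibroblast-like and pericyte-like cells, Col4a1 and Col4a2 in endothelial-like and pericyte-like cells (3778 and 3411 CPM for Col4a1), and collagen IX with Col11a1 in the basal and luminal epithelial-like columns.

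In kidney the order of the members was different, and the most abundant were the collagen IV chains Col4a1, Col4a4, Col4a3 and Col4a2. Col4a1 stood at 58.3, 39.7 and 139 CPM and Col4a2 at 31.4, 24.1 and 73.0 CPM, with 60 min ratios of 2.39 (2.27 to 2.51) and 2.33. Col4a4 (59.5, 87.7 and 64.3 CPM) and Col4a3 (34.5, 58.5 and 38.4 CPM) had their highest level at 15 min, 1.47 and 1.70 times the control (1.59 to 1.81 for Col4a3), where Col4a1 and Col4a2 had their lowest, 0.682 and 0.768 times, although with the TMM factor Col4a2 was 1.05 times. Col4a5, a further chain of the glomerular network, stood at 5.41, 6.32 and 6.32 CPM. Col18a1 followed with 18.8, 15.1 and 24.2 CPM (at 15 min 0.804 times the control, and 1.10 times with the TMM factor). Col27a1 stood at 10.3, 6.45 and 15.3 CPM, and its 15 min ratio of 0.623 became 1.73 without upper limits on cells (16.4, 28.4 and 25.4 CPM). The proximal tubule markers, like Col4a3 and Col4a4, were highest at 15 min (5931, 11300 and 4251 CPM). They were lowest at 60 min, however, whereas Col4a3 and Col4a4 were lowest in the control. The endothelial markers had the order of Col4a1 and Col4a2 (606, 271 and 1672 CPM).

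Transcripts of collagens I and III were close to absent from the kidney 15 min library. Other fibrillar and stromal chains were still found there, with 396 UMIs for Col27a1, 44 for Col5a2 and 130 for Col12a1. Col1a1 had 160, 1 and 349 UMIs, Col1a2 193, 6 and 440 UMIs, and Col3a1 141, 0 and 456 UMIs. A count of 0 allows up to 0.0488 CPM (3 counts), which puts Col3a1 at least 85.8-fold lower than the control, and Col1a2 stood at 0.0170 times the control. Col6a1 had 55, 1 and 134 UMIs, Col26a1 39, 0 and 67 UMIs (at least 23.7-fold lower) and Col14a1 234, 32 and 646 UMIs (0.0749 times). Of 24 counted members 11 were lower past 2-fold at 15 min, where 28.6% of 14230 genes were, and 0 were higher, where 2.04% were. With the TMM factor, which moves the median of all genes, 10 members were lower and 3 higher, beside 2794 and 864 of all genes in place of 4067 and 291. The 11 were Col1a1, Col1a2, Col3a1, Col6a1, Col26a1 and Col14a1, with Col5a1, Col6a2, Col6a3, Col13a1 (0.394 times) and Col15a1 (0.259 times). With genes at 0 UMIs set to 3, the median log2 ratio was -4.53 for the 6 fibrillar chains counted (4 lower), -3.89 for the beaded filament chains (3 of 4), -1.13 for the multiplexins (1 of 2), -0.65 for the FACIT chains (1 of 4), -1.34 for Col13a1 and -4.57 for Col26a1, the only transmembrane and other chains counted, 0.22 for the basement membrane chains (0 of 5) and 0.91 for Col8a1, the hexagonal network chain counted. It was -0.74 over the collagens and -0.42 over all genes. With 0 of 8390 cells gated as fibroblast-like and the 6 non-collagen fibroblast markers at 1.09 CPM against 63.2 CPM in the control, collagen within fibroblast-like cells could not be measured in this library.

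At 60 min 8 of 24 members were higher past 2-fold in kidney, where 8.55% of all genes were, and 0 were lower, where 0.97% were. With the TMM factor 5 were higher and 0 lower, beside 722 and 319 of all genes in place of 1217 and 138. The 8 were Col4a1 and Col4a2, Col3a1 (4.19, 0 and 8.71 CPM, 2.08 times, 1.72 to 2.53), Col5a2 (1.01, 0.716 and 3.82 CPM, 3.78 times, 2.62 to 5.61), Col6a2 (21, 2 and 70 UMIs, 2.14 times), Col8a1 (1.37, 2.57 and 2.94 CPM, 2.15 times), Col13a1 (2.44, 0.960 and 7.28 CPM, 2.99 times) and Col15a1 (8.35, 2.16 and 19.9 CPM, 2.38 times). Col1a1 and Col1a2 were 6.67 and 8.41 CPM there against 4.76 and 5.74 CPM in the control, within 2-fold, but 2.74 and 2.38 times the control without upper limits on cells. Per type, 2 of 6 fibrillar (median log2 ratio 0.74), 2 of 5 basement membrane (0.23), 1 of 4 beaded filament (0.67), 1 of 1 hexagonal (1.11), 0 of 4 FACIT (-0.08), 1 of 1 transmembrane (1.58), 1 of 2 multiplexin (0.81) and 0 of 1 other chains (Col26a1, 0.14) were higher. The median was 0.60 over the collagens and 0.22 over all genes. Endothelial-like cells, which hold most Col4a1, Col13a1 and Col15a1, numbered 559, 363 and 2395.

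The kidney endothelial-like cells resembled those of the tumor in the kinds of collagen they carried, at a lower level, 1014, 1267 and 1142 collagen CPM. Col4a1 stood at 546, 705 and 607 CPM (68.8% of its UMIs), Col4a2 at 259, 346 and 303 CPM (62.5%), Col15a1 at 82.5, 86.0 and 93.1 CPM (82.5%) and Col13a1 at 36.0 CPM over the 3 libraries (91.4%). Within the class Col4a1 and Col4a2 were highest at 15 min, where their library sums were lowest. Col18a1, at 536 CPM in the tumor endothelial-like cells, stood at 11.4 CPM here. Col4a3 and Col4a4 were found at 34.0 and 28.3 CPM, against 1.92 and 3.83 CPM in T and NK-like cells, and B-like cells had Col27a1 at 4.59 CPM and Col4a4 at 3.38 CPM.

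Proximal tubule-like cells carried Col4a4 at 70.7, 92.9 and 98.7 CPM and Col4a3 at 47.4, 61.7 and 65.4 CPM, and held 78.6% and 83.1% of the UMIs of these genes. Their collagen CPM was 184, 231 and 277. Thinned to 1000 UMIs, Col4a4 was found in 8.28% and Col4a3 in 5.99% of these cells, against 0.383% of T and NK-like cells for Col4a4, and Col4a4 was present in 13.6% of the cells with a Col4a3 UMI and in 7.94% of those without. Col18a1 (11.9, 14.8 and 20.6 CPM), Col27a1 (7.30, 6.66 and 22.7 CPM, 3.11 times the control at 60 min, 2.56 to 3.79) and Col8a1 (1.84, 2.73 and 5.79 CPM, 3.15 times) were higher at 60 min. Col4a1 (19.2, 24.4 and 28.3 CPM) and Col4a2 (16.8 CPM over the 3 libraries) were lower than Col4a4 in these cells, the opposite of the endothelial-like cells. The low-count members Col6a6 (0.795 CPM, 93.8% of its UMIs) and Col19a1 (0.530 CPM, 78.1%) had most of their UMIs in this large class. Their levels were higher elsewhere, for Col19a1 in pericyte-like cells (37.6 CPM, 15.6% of its UMIs). For Col6a6 the highest level was in fibroblast-like cells (17.4 CPM, 3.75% of its UMIs).

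The highest Col4a4 level per cell class lay further down the tubule. Principal-like cells of the collecting duct stood at 536, 511 and 545 CPM, distal convoluted tubule-like cells at 238 CPM and loop of Henle-like cells at 162 CPM over the 3 libraries. Thinned shares had the same order, 38.0%, 17.5% and 12.8%, against 8.28% in proximal tubule-like cells. Col4a3 differed less, with 109, 60.7 and 75.7 CPM. Principal-like cells also carried Col18a1 at 324 CPM, Col4a1 at 129.9 CPM, Col27a1 at 69.1 CPM and Col26a1 at 63.8, 0 and 73.1 CPM, where the class held 84.9% of the Col26a1 UMIs and had 15 cells at 15 min. Intercalated-like cells, their neighbours in the duct, had Col18a1 at 223 CPM but Col4a4 at only 45.9 CPM and Col4a1 at 35.5 CPM. In distal convoluted tubule-like cells Col18a1 stood at 75.9, Col5a2 at 40.2 and Col27a1 at 35.7 CPM. Col5a2 in the loop of Henle-like cells stood at 27.3, 52.3 and 75.3 CPM, 47.5% of all kidney Col5a2 UMIs, and 54 of 460 cells carried it. Col18a1 (44.1 CPM) and Col4a5 (23.8 CPM) were also among the 5 leading collagens of that class.

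**Figure D5:**
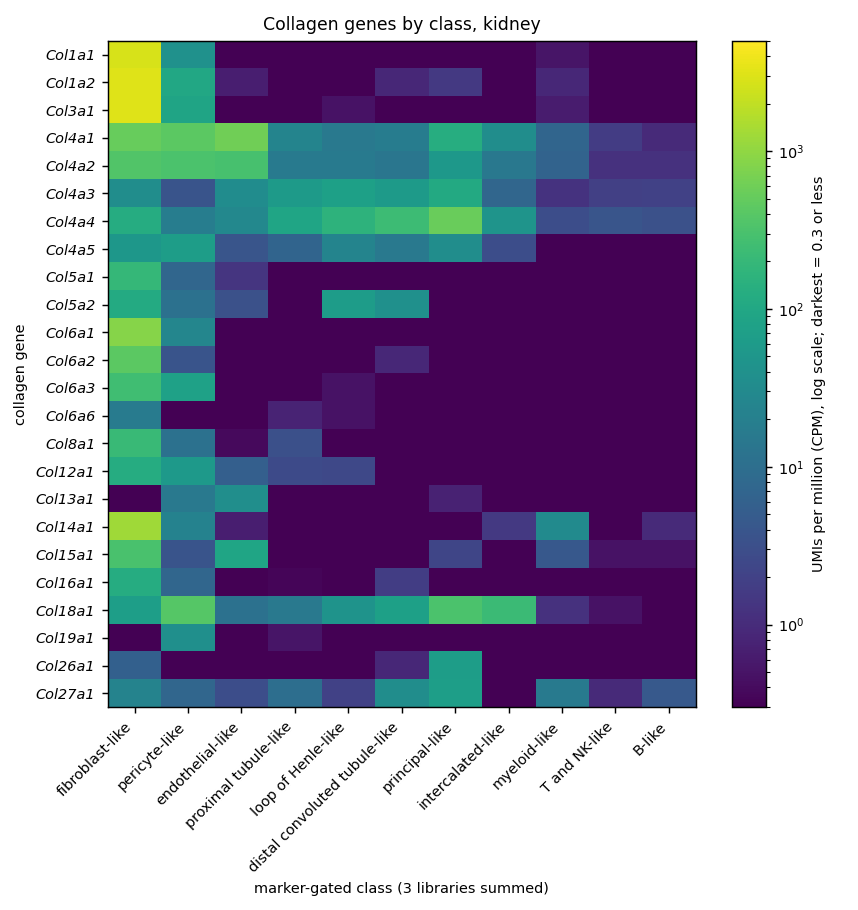
CPM of the 24 counted collagens (rows) in 11 marker-gated classes of the kidney (columns, 3 libraries summed), in colours on a log scale. Fibrillar chains are bright in the fibroblast-like column, Col4a1 and Col4a2 in the endothelial-like, pericyte-like and fibroblast-like columns, and Col4a4 is brightest in principal-like cells (541 CPM).

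Kidney fibroblast-like cells were 28 in all and had the highest level of 15 of the 24 counted members. Among the 15, Col4a2 and Col12a1 were above the second class in 1 of 3 libraries, and the Col6a6 level rested on 3.75% of its 80 UMIs. Collagen CPM of the fibroblast-like cells was 8847 in the control and 18038 at 60 min (2.04 times, 1.86 to 2.23). Col1a2 stood at 2077 and 3844, Col3a1 at 1703 and 4094, Col1a1 at 1925 and 3353, Col14a1 at 443 and 1812 (4.09 times) and Col6a1 at 512 and 1131 CPM. The class held 92.9% of Col1a1 and 89.1% of Col3a1 UMIs of the kidney. These values come from 11 and 17 cells, and the differences between cells are not covered by the intervals. The Col3a1 to Col1a1 ratio was 0.885 in the control and 1.22 at 60 min.

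Pericyte-like cells of the kidney (12, 2 and 32), led by the smooth muscle and renin genes Acta2, Tagln, Myl9 and Ren1, had Col4a1 at 437, Col18a1 at 384, Col4a2 at 316, Col1a2 at 102 and Col3a1 at 86.6 CPM. Col18a1 was thus far higher than in the kidney endothelial-like cells, and the fibrillar chains far lower than in pericyte-like cells of the tumor. Collagen CPM was 2208 in the control and 1593 at 60 min (0.722 times). Only 7 cells passed the podocyte gate, under the 20 cells set for a class, and these held 36 Col4a4 and 26 Col4a3 UMIs, or 1082 and 781 CPM. Podocytes are the known source of the alpha 3, 4 and 5 chains of the glomerular basement membrane.

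Partner chains kept their proportion to different degrees. In tumor endothelial-like cells there were 1.89, 1.79 and 1.86 Col4a1 UMIs per Col4a2 UMI, and in kidney endothelial-like cells 2.11, 2.04 and 2.01. Over the 3 libraries the ratio was 1.66 in tumor pericyte-like, 2.01 in tumor fibroblast-like, 1.38 in kidney pericyte-like, 1.44 in proximal tubule-like and 2.44 in principal-like cells. Col4a3 to Col4a4, the pair whose starts lie 72 bases apart, gave 0.670, 0.664 and 0.663 in proximal tubule-like cells of the 3 libraries, with intervals that overlap. The same ratio was 0.201 in principal-like, 0.256 in distal convoluted tubule-like, 0.468 in loop of Henle-like and 1.20 (1.04 to 1.38) in endothelial-like cells, so the pair differed more between classes than between libraries of the proximal tubule-like class. In luminal cells of the tumor, Col11a1 to Col9a1 was 0.75, 0.76 and 0.78, and Col9a1 to Col9a2 was 1.84, 1.81 and 1.47. Col6a1 to Col6a2 in the tumor fibroblast-like cells was 1.48, 1.49 and 1.43, with intervals that overlap.

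Genes that modify, process and bind collagen were followed beside the chains. In the tumor at 60 min 10 of 11 counted genes of propeptide processing and cross-linking, 7 of 19 of procollagen modification and 4 of 9 collagen receptors were higher past 2-fold and 0 lower, where 8.08% and 2.12% of all genes were, with median log2 ratios of 1.53, 0.81 and 0.49. Serpinh1, the collagen chaperone of the endoplasmic reticulum, stood at 157, 212 and 408 CPM (2.59 times), and was highest in fibroblast-like (2352 CPM), pericyte-like (1443) and endothelial-like cells (990.1). Ppib (421, 421 and 509.7 CPM) and P4hb, a subunit of prolyl hydroxylase (257, 336 and 277 CPM), which all cells use, differed less. Pcolce, an enhancer of propeptide cleavage, stood at 9.63, 12.3 and 67.3 CPM (6.99 times), Loxl1, a cross-linking oxidase, at 7.90, 12.4 and 59.9 CPM (7.58 times) and the propeptide protease Bmp1 at 14.0, 15.5 and 35.4 CPM (2.53 times). Among receptors, Itgb1 stood at 174, 226 and 222 CPM, Lair1, an inhibitory receptor of leukocytes, at 41.7, 54.4 and 58.6 CPM and Ddr1, the epithelial discoidin receptor, at 31.0, 44.8 and 23.6 CPM. At 15 min 0 of 19, 1 of 11 (Lox, 1.91, 4.47 and 25.2 CPM) and 1 of 9 (Ddr2, 1.89, 3.81 and 8.19 CPM) were higher and 0 lower, where 2.84% and 3.32% of all genes were, with medians of 0.40, 0.35 and 0.50. Within the fibroblast-like cells 2 of 17, 3 of 9 and 1 of 5 were higher at 60 min, and 1 processing gene was lower, where 11.1% and 4.57% of all genes were, so that the modification genes were near the share of all genes.

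In kidney at 60 min 6 of 10 processing, 4 of 18 modification and 1 of 6 receptor genes were higher past 2-fold and 0 lower, where 8.55% and 0.97% of all genes were (median log2 ratios of 1.08, 0.48 and 0.14). At 15 min 8 of 10, 5 of 18 and 3 of 6 were lower and 0 higher (-1.91, -0.47 and -0.87), where 28.6% and 2.04% of all genes were and the median of all genes was -0.42, so that the modification genes were near the share of all genes. Serpinh1 stood at 40.8, 25.2 and 85.4 CPM, Ppib at 267, 264 and 301 CPM, and P4hb at 78.7, 85.7 and 94.4 CPM. Pcolce (9.90, 2.30 and 15.9 CPM) and Tll1, a protease of the Bmp1 family (2.53, 1.03 and 6.27 CPM), were lowest at 15 min, and Pxdn, which cross-links collagen IV, stood at 4.93, 4.70 and 11.3 CPM. The receptors Itgb1 (121, 87.5 and 227 CPM), Itga1 (32.4, 26.9 and 66.5 CPM) and Lair1 (32.5, 4.28 and 35.5 CPM) were also lowest at 15 min.

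The remaining members were rare. In the tumor 9 had under 60 UMIs over the 3 libraries, namely Col28a1 (56), Col26a1 (53), Col6a6 (43), Col19a1 (26), Col10a1 (16), Col24a1 (16), Col4a3 (4), Col6a4 (1) and Col22a1 (1). Of the Col26a1 UMIs 94.3% came from fibroblast-like cells and of the Col28a1 UMIs 66.1% from endothelial-like cells. Col4a4 (0.711, 1.11 and 0.552 CPM) and Col11a2 (0.730, 0.438 and 0.414 CPM) were just above that limit. In kidney 20 were under it, the most abundant being Col20a1 (54), Col4a6 (41), Col11a2 (41) and Col5a3 (33), with 63.4% of Col11a2 UMIs in myeloid-like cells. Col9a1 had 0, Col9a2 1 and Col11a1 10 UMIs in kidney, where the tumor had 20929, 12418 and 16655. The other kidney members under the limit were Col7a1 (29), Col9a3 (24), Col25a1 (23), Col23a1 (22), Col24a1 (19), Col8a2 (4), Col6a4 (3), Col17a1 (3), Col2a1 (2), Col28a1 (2), Col6a5 (1), Col10a1 (1) and Col22a1 (1). Counts by library of the other kidney members with no ratio past 2-fold were Col6a6 (20, 40 and 20 UMIs), Col12a1 (101, 130 and 167), Col16a1 (21, 22 and 27) and Col19a1 (13, 34 and 17).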

How the data were processed

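Kidney and MMTV-PyMT mammary tumor tissue had been dissociated, sorted for live cells and profiled on the 10x Chromium with v3 chemistry, 1 library per tissue and condition. Per the submitters' processing notes Cell Ranger 3.1.0 and mm10 were used. The authors aligned reads, counted UMIs per gene and cell and joined the 3 libraries of a tissue with an aggregation step that evens out read depth, and the deposited values are whole-number counts of UMIs without further filtering. Depth between libraries is therefore partly equalised before deposit, and removed reads cannot be recovered. The suffix of the cell barcode gave the library, and libraries were mapped to conditions by their labels. No column of another series was present (0).

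Cells with at least 200 genes, at most 3000 (kidney) or 4000 (tumor) genes and at most 50% (kidney) or 25% (tumor) mitochondrial UMIs were kept, after the study's methods. A cell was assigned to the class with the highest mean log marker level, each marker scaled to percentile 95 of the cells that hold it, if at least 3 of 6 markers were detected, and was called mixed if a class of another lineage reached 0.5 of that score. No doublet caller was run, so doublets were limited only by the gene limit and the mixed class. Classes under 20 cells were not described as classes, namely 8 cells gated on mesangial markers but led by Ren1 and Akr1b7, 7 on podocyte markers, Schwann-gated cells of both tissues and 11 tumor B-like cells. UMIs were summed over all cells of a library or class and divided by all their UMIs (CPM). With 1 library per group there is no test. A gene was counted as past 2-fold at a ratio of at least 2 or at most 0.5 if it had at least 60 UMIs over the 3 libraries of the tissue. Intervals are exact Poisson, Clopper-Pearson or, for ratios, conditional binomial intervals at 95%, and a count of 0 was set against 3 counts. Cells were thinned to 1000 UMIs with seed 1 to compare shares of cells. The procedure was tested on simulated data with known fold changes.

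Members named were the 10 with most UMIs per tissue, up to 5 per class with at least 10 UMIs, those past 2-fold with intervals that do not overlap, and their partner chains. Of the 3 lists of collagen modification, processing and receptor genes, the 3 with most UMIs per tissue were named. Lox and Ddr2, as the only genes of their lists past 2-fold in 1 comparison, and single remarks on the rare members were chosen after their values were seen. The members and lists were chosen with earlier results of these data known. Alternatives were TMM factors, the mean over cells, other denominators, cell and gene limits, marker lists and gates. Python 3.11.15, NumPy 2.4.6, SciPy 1.17.1, pandas 2.3.3, matplotlib 3.10.9, R 4.3.3 and edgeR 4.0.16 (for TMM factors only) were used.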

Additional observations from a re-analysis of the deposited data

Results flagged for a closer look

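A total of 13 of 20 members counted in both tissues had opposite directions in kidney and tumor at 15 min, lower than the control in kidney and higher in the tumor. Only ratios whose interval lay on 1 side of 1 in both tissues were counted, so members such as Col5a2 (0.709 times in kidney, 0.443 to 1.14) were left out. The same held for 30.5% of 13131 genes counted in both tissues, whose medians at 15 min also lay on opposite sides (-0.42 and 0.22 on the log2 scale). With the TMM factors it held for 9 of 20 members and 10.1% of genes, and Col4a2, Col13a1, Col15a1 and Col18a1 were not among them. Without upper limits on cells it held for 12 of 26 members and 29.7% of 13999 genes. Col3a1, Col6a1 and Col14a1 were then not among the members, while Col5a2 and Col12a1 were. Each of these counts rests on 1 library per condition, and the difference between the tissues was not tested. The ratios to the control in kidney and in the tumor were 0.00342 and 1.82 for Col1a1, 0.0170 and 2.22 for Col1a2, 0 and 1.51 for Col3a1, 0.110 and 1.40 for Col5a1, 0.00996 and 1.44 for Col6a1, 0.0522 and 1.40 for Col6a2 and 0.0876 and 1.38 for Col6a3. The kidney values of Col1a1 and Col6a1 rest on 1 UMI each, and that of Col3a1 on 0. For vessel and other chains they were 0.682 and 1.22 for Col4a1, 0.768 and 1.29 for Col4a2, 0.394 and 1.24 for Col13a1, 0.0749 and 1.24 for Col14a1, 0.259 and 1.17 for Col15a1 and 0.804 and 1.16 for Col18a1. The kidney 15 min library had 0 fibroblast-like cells and summed endothelial markers of 271 CPM against 606 CPM in the control.

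At 60 min 1 of 20 members had opposite directions with both intervals on 1 side of 1, Col27a1, at 1.48 times the control in kidney and 0.718 times in the tumor. The same direction was found for 13.7% of all genes. It held with the TMM factors, and without upper limits on cells Col27a1 was not among the members with opposite directions. This difference was not tested either.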

How the results depend on the processing

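No paired analysis was possible because each group is 1 library and the labels carry no shared replicate numbers, and no library could be left out. The kidney total at 15 min (0.944 times the control) changed direction with the TMM factor (1.29), without upper limits on cells (1.25) and with non-mitochondrial UMIs as denominator (1.06). The TMM factor moved the median log2 ratio of all genes from -0.42 to 0.03 there, from 0.22 to 0.00 for kidney at 60 min and from 0.22 to 0.07 for the tumor at 15 min. It gave totals of 1.46 times the control for kidney at 60 min (1.69 as reported) and 1.24 for the tumor at 15 min (1.37), with 3 members higher in kidney at 15 min (0 as reported) and 5 at 60 min (8). The mean over cells gave 1.77 for kidney at 60 min, 1.29 for the tumor at 15 min, 2.85 for the tumor at 60 min (3.35) and 1.16 for the tumor fibroblast-like cells (1.21). Without upper limits on cells these 4 were 1.60, 1.19, 4.32 and 1.44, the counts were 1 higher in kidney at 15 min, 13 higher in kidney at 60 min, 2 lower in the tumor at 15 min (0 as reported) and 0 lower in the tumor at 60 min (1), the kidney endothelial-like share was 16.2% (31.6%) and the tumor fibroblast-like share 66.4% (47.1%). With the minimum of 60 UMIs dropped, 17 members were lower in kidney at 15 min (11), and 2 were higher and 2 lower in the tumor at 15 min. Non-mitochondrial UMIs gave 1 higher member in kidney at 15 min and 1.18 for the tumor fibroblast-like cells. Other gates gave tumor fibroblast-like shares of 47.5% (2 markers), 48.0% (the second marker list) and 48.2% (mixed cells assigned), ratios of 1.24 and 1.26 in this class with the last 2, and a kidney endothelial-like share of 33.0% with mixed cells assigned. The cause of these moves was not tested. Leaving out cells with a barcode that another library of the tissue shares, chosen after seeing the data like the alternatives to the counts of opposite directions, moved none of these. Of all alternatives to the totals, shares and counts, 52 stayed within the limits set, 29 moved and 3 changed direction, and of those to named members 364 stayed, 105 moved and 11 changed direction from a ratio whose interval lay on 1 side of 1. These were, with the TMM factor, Col4a2 (1.05) and Col18a1 (1.10) in kidney at 15 min, Col4a4 (0.932) and Col4a3 (0.959) in kidney at 60 min and Col16a1 (0.990) in the tumor at 15 min; with the mean over cells, Col4a1 (0.940), Col16a1 (0.862) and Col18a1 (0.997) in the tumor at 15 min and Col16a1 (0.949) at 60 min; and without upper limits on cells, Col27a1 in kidney (1.73) and Col3a1 in the tumor (0.946) at 15 min. Depth limits members under 60 UMIs, and a count of 0 allows up to 0.0488 to 0.0892 CPM per library.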
